A study of Drosophila melanogaster with 3 samples.

Results

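The nuclear genes for respiratory complexes II to V were described by the promoter peaks of Achintya (achi), a Drosophila melanogaster homeodomain protein of the TGIF class. They were chosen by name alone, as the protein-coding genes in the Ensembl annotation of the dm6 genome whose name starts with Sdh, UQCR-, COX or ATPsyn. This gave 48 of 13945 protein-coding genes: 8 of complex II, 9 of complex III, 16 of complex IV and 15 of complex V. Sdhaf3 encodes an assembly factor and the other 47 encode subunits or subunit paralogues. The flies were of the strain achi-GFP, a transgenic line with GFP at the C-terminus of achi, and whole prepupae of both sexes were pooled, with their age given as unknown. Chromatin was sheared by sonication and precipitated with anti-GFP, per the sample description, although another label names achi as the antibody target. All 3 samples are biological replicates of this 1 group, so no untagged or other group was compared, and what drives the tagged gene is not stated. The replicates come from 1 line, and the lists share a single control, per the deposited file descriptions.

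Complexes II to V complete oxidative phosphorylation in the inner mitochondrial membrane. Complex II (succinate dehydrogenase) passes electrons from succinate to ubiquinone, complex III (the cytochrome bc1 complex) passes them to cytochrome c, and complex IV (cytochrome c oxidase) passes them to oxygen, while complex V (ATP synthase) uses the proton gradient to make ATP. Drosophila carries duplicates of many of these subunit genes, and such duplicates are known for expression in the testis. Names ending in L or L2, which mark such paralogues, applied to 18 of the 48 genes. No expression was measured, so their expression in these animals was not checked.

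The strongest of these promoters carried TGACAG, the core word bound by TGIF-class homeodomains, and their sequences are shown for that reason. Each line gives 30 bases from the reference genome (dm6, the Release 6 assembly), 5′ to 3′ on the strand of the named gene, with TGACAG or its reverse complement CTGTCA in capitals. The stretches come from chr3R:14327056-14327085 (plus) for ATPsynE, chrX:19744355-19744384 (minus) for COX6B, chr3R:11819530-11819559 and chr3R:11819595-11819624 (both plus) for the upstream and downstream words of COX5A, chr3L:9729987-9730016 (plus) for ATPsynB and chr3R:8340993-8341022 (minus) for COX7A. The last lines are the remaining bound members with the word, SdhD at chr3R:23760596-23760625 and COX7AL2 at chr2L:2197635-2197664 (both minus).
ATPsynE: tagccgcCTGTCAgtttTGACAGctgtttt
COX6B: ggctctagCTGTCAccgTGACAGctctcga
COX5A upstream: ctcactgttccgTGACAGcgacagttataa
COX5A downstream: catcactcagatCTGTCAtacccgtgtgaa
ATPsynB: cgctctcttaacCTGTCActattgtgaact
COX7A: tccagttgtcagCTGTCAtatttcagaccg
SdhD: ataacaaatcgaTGACAGctgactgcacta
COX7AL2: ttgaaacacattTGACAGccccaggcagaa
In ATPsynE and COX6B the word stood as an inverted pair, with 4 and 3 bases between its copies.

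A gene was counted as bound when a summit of the authors' optimal list, their 8998 reproducible peaks, lay within 500 bp of any of its annotated transcription start sites (TSSs). This held for 14 of the 48 genes (29.2%), against 23.2% of all protein-coding genes, so the count as a whole stood near the background. The lists of the replicates, each limited to its 8998 strongest regions, gave 15, 13 and 15 bound members in replicates 1, 2 and 3 (mean 14.3 ± 1.15, SD, n = 3), where 26.6%, 23.9% and 22.6% of all protein-coding genes were bound. Members and complexes are compared here by their counts, since genes are not replicates and no test over them was made.

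By this rule complex IV had the highest share of bound genes among the named members and complex III the lowest, although the first place did not hold under every rule. The name rule leaves out some subunit genes. Of those of complex III, ox and Cyt-c1 were bound and RFeSP was not, so its last place is stated for the named genes only. Of the 16 complex IV genes 7 were bound (43.75%), with 8, 7 and 7 in the replicates' own lists. Of the 8 complex II genes 2 were bound (2, 1 and 2 in the replicates), of the 9 complex III genes 1 (1 in each replicate), and of the 15 complex V genes 4 (4, 4 and 5). The spread between replicates was thus at most 1 gene per complex, although each complex holds few genes and its share moves by several percentage points with each of them. When a summit counted only for the gene with the nearest protein-coding TSS, 8 members were bound (1, 1, 3 and 3 of complexes II to V), against 18.3% of all protein-coding genes. Complex V then stood at 20.0% and complex IV at 18.75%. With a 200 bp window each had 4 bound genes, and in the stronger 50% of peaks each had 3, so complex V, with 1 gene fewer in all, again had the slightly higher share. Of all protein-coding genes, 15.7% and 15.1% were bound under these settings.

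**Figure D1:**
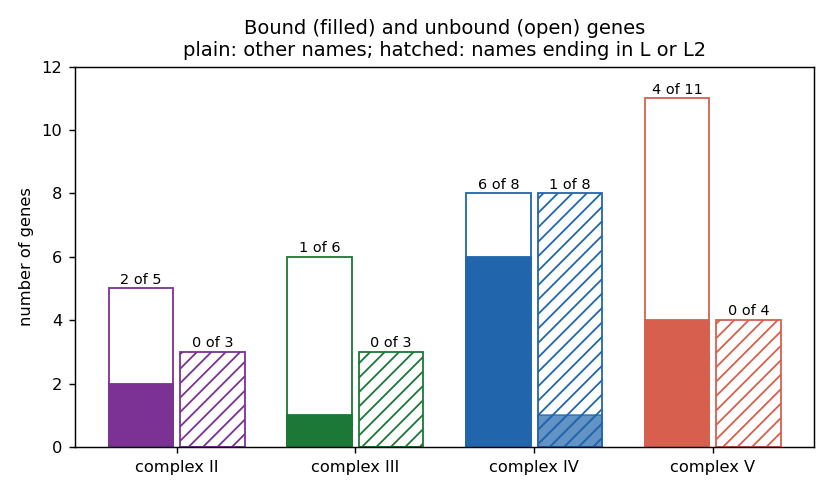
Number of genes per respiratory complex, with bound genes filled and unbound genes open. Plain bars are genes whose names do not end in L or L2 and hatched bars are those that do; complex IV holds the most bound genes (6 of 8 and 1 of 8), and the hatched bars hold 1 bound gene in all.

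The bound members fell into 5 strong and 9 weak peaks with a wide gap between them. In the optimal list, where rank 1 is the peak with the highest signal value as scored by the authors, ATPsynE ranked 14, COX6B 16, COX5A 56, ATPsynB 108 and COX7A 128. The next was ATPsynCF6 at 3889, and the weakest, COX5B, stood at 8177. Among the 250 strongest peaks, a limit chosen after the ranks were seen, 5 of 48 members (10.4%) had a promoter peak, against 1.82% of all protein-coding genes, and no further member was added up to rank 3000. The strong peaks belonged to complexes IV and V alone, 3 of 16 and 2 of 15 genes, and none lay at a gene of complex II or III covered by the name rule. Whether promoter activity goes with this was not tested, and in whole animals a promoter bound in few cells and one bound weakly in many cannot be told apart.

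**Figure D2:**
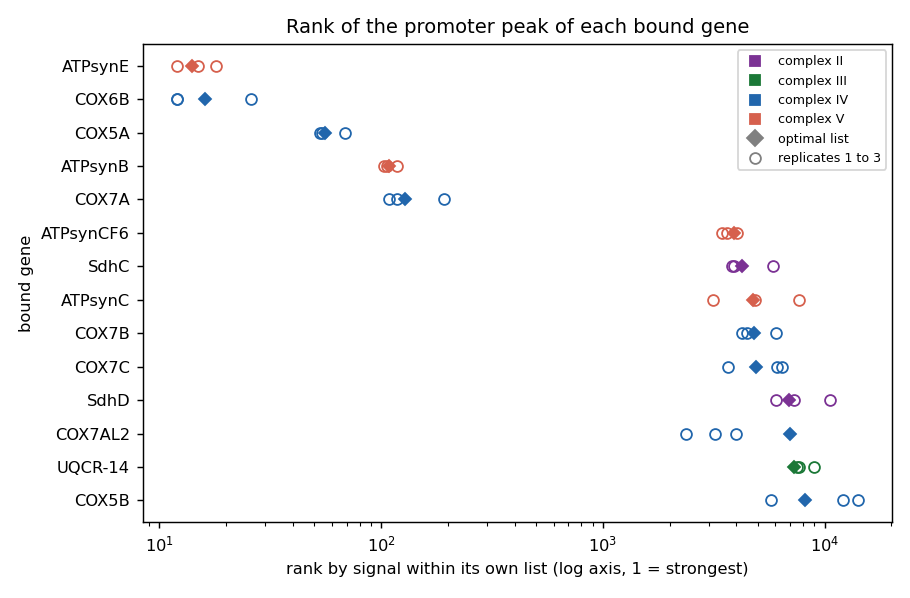
Rank of each bound gene's peak by the authors' signal value, on a log axis where 1 is the strongest, in the optimal list (diamonds) and in the replicate lists (circles), coloured by complex. ATPsynE, COX6B, COX5A, ATPsynB and COX7A lie between ranks 12 and 193 in every list, and the other 9 genes lie at rank 2375 or beyond. For COX7AL2 the circles are the strongest regions that overlap a peak which also takes in a stronger summit.

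ATPsynE (FBgn0038224, 3R 14326947 to 14327735, plus strand) encodes the e subunit of the membrane part of ATP synthase. Its peak (3R 14326616 to 14327353) had its summit at 14327031, in the 5′ UTR of the longer transcript and 37 bp upstream of the nearest TSS. In the replicates' own lists of 30000 regions it ranked 15, 12 and 18 (mean 15.0 ± 3.0, SD, n = 3). The gene's starts share the window with Afti, which is transcribed the other way, but the nearest TSS was that of ATPsynE. Both copies of TGACAG lay within 10 bp of that TSS, with centres at -2.5 and 7.5 bp from it and at 34.5 and 44.5 bp from the summit.

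COX6B (FBgn0031066, X 19740537 to 19744335, minus strand), which encodes a small subunit of cytochrome c oxidase, had the next strongest peak of these genes. The peak (X 19744082 to 19744619) had its summit at 19744384, outside annotated genes and 49 bp upstream of the TSS, and ranked 12, 26 and 12 in replicates 1, 2 and 3 (mean 16.7 ± 8.08, SD, n = 3). Replicate 2 ranked it lowest, and ATPsynE and COX6B changed places between replicates, so their order was not stable. This promoter is shared by several genes: CG18809 starts at the same base as COX6B, and Rpp20, a subunit gene of ribonuclease P, and CG33932 start on the opposite strand, 47 bp from the summit. By nearest TSS the peak would go to Rpp20 and CG33932. The inverted pair of TGACAG lay between the summit and the COX6B start, with centres 10.5 and 19.5 bp from the summit.

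COX5A (FBgn0019624, 3R 11819359 to 11820299, plus strand) encodes a nuclear subunit of complex IV. Its summit, at 11819556, lay in the 5′ UTR of the longer transcript, 43 bp upstream of the nearest TSS, and ranked 54, 53 and 69 in the replicates (mean 58.7 ± 8.96, SD, n = 3). The 2 copies of TGACAG were 59 bases apart, on either side of the summit at 11.5 and 53.5 bp. The opposite strand carries starts of glo, which encodes an RNA-binding protein, within the same window.

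ATPsynB and COX7A completed the strong peaks. ATPsynB (FBgn0019644, 3L 9729999 to 9731224, plus strand) encodes the b subunit of the peripheral stalk, and its summit at 9729976 lay 23 bp upstream of its only TSS, outside annotated genes. Its ranks were 103, 106 and 118 (mean 109.0 ± 7.94, SD, n = 3). No other protein-coding gene starts within 500 bp of that summit, and the word TGACAG begins at the TSS itself. COX7A (FBgn0040529, 3R 8339944 to 8341043, minus strand) encodes another complex IV subunit and shares its promoter with the GTPase gene Arl2. Its summit at 8341032 was 11 bp downstream of its TSS, in the 5′ UTR, with ranks of 118, 108 and 193 (mean 139.7 ± 46.5, SD, n = 3). Replicate 3 ranked it lowest. The ranges of the pair overlapped, although ATPsynB ranked above COX7A in each of the 3 replicates.

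Of the weak complex V peaks, that of ATPsynCF6 (FBgn0016119, 3R), the gene of coupling factor 6 of the peripheral stalk, was the steadier, with ranks of 3621, 3445 and 4023. Its summit was 42 bp from the start of Sec13, a gene of the COPII coat, and 172 bp upstream of its own TSS. ATPsynC (FBgn0039830, 3R), the gene of the c subunit that forms the rotor ring, had its summit 1 bp upstream of a TSS of its own, in the 5′ UTR of a longer transcript, and no other coding gene starts nearby. Its ranks were 3140, 7689 and 4882, so replicate 2 placed it far lower than replicate 1.

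The weak complex IV peaks mostly lay closer to another gene's start. COX7B (FBgn0040793, 3L) ranked 4251, 6057 and 4491, with its summit 87 bp from the start of the exocyst gene Sec3 and 173 bp from its own. COX7C (FBgn0040773, 2R) ranked 3666, 6128 and 6412, and its summit, in a COX7C intron, was 20 bp from the start of oys and 286 bp from that of COX7C. COX5B (FBgn0031830, 2L) was the weakest and least repeatable bound member, with ranks of 5759, 12138 and 14213. Its summit was 36 bp from the start of IFT52, an intraflagellar transport gene, and 262 bp from that of COX5B, and it lay in the top list of replicate 1 only.

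In complex II the bound genes were SdhC and SdhD, which encode the membrane anchor of the enzyme. SdhC (FBgn0037873, 3R) ranked 3893, 3816 and 5871, but its summit lay 295 bp upstream of it and 103 bp from the start of Tctp, transcribed the other way. SdhD (FBgn0039112, 3R) had its summit 2 bp from its own TSS, with ranks of 6017, 10548 and 7321, and replicate 2 did not hold it among its 8998 strongest regions. SdhA and SdhB, the genes of the catalytic flavoprotein and iron-sulfur subunits, were unbound. Their nearest optimal summits lay 1061 and 2239 bp away, and no region of the pooled list had its summit within 500 bp of either start.

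Of the complex III genes covered by the name rule, which leaves out the bound genes ox and Cyt-c1, only UQCR-14 (FBgn0030733, X) was bound. It encodes a small subunit and ranked 7634, 7519 and 8992. Its summit was 33 bp upstream of its TSS, within the 3′ UTR of the neighbouring gene CG32576. The genes of the core subunits, UQCR-C1 and UQCR-C2, were unbound. UQCR-C2 had a pooled region of rank 22151 of 30000 at its promoter, and UQCR-C1 had none.

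Summits of the strong peaks all lay close to a start, while those of the weak peaks ranged more widely and overlapped them. All 5 strong summits lay within 50 bp of a TSS of the member, at 11 to 49 bp, against 24.8% of the 254 protein-coding genes with a promoter peak among the strongest 250. The 9 weak summits lay at 1 to 306 bp (median 173 bp), with 3 of them within 50 bp. Over all 3234 bound genes the median distance was 157 bp. The member's own TSS was the nearest protein-coding TSS for 4 of the 5 strong peaks, COX6B being the exception, and for 4 of the 9 weak ones, against 76.4% of all bound genes. In all, 9 of the 14 summits also lay within 500 bp of another protein-coding gene's TSS (64.3%, against 49.2% of all bound genes), and each of these 9 had a neighbour on the opposite strand.

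**Figure D3:**
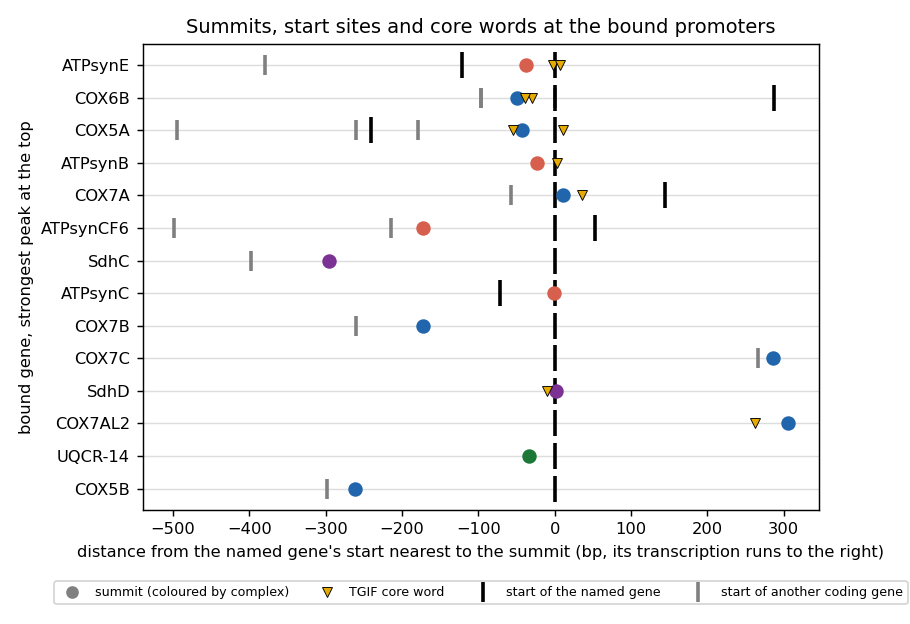
Position of the summit (circle, coloured by complex as in the plot of ranks), of the TGIF core word (triangles) and of start sites within 500 bp of the summit, for each bound gene, in bp from the start of that gene nearest to the summit. In the upper 5 rows the summit lies within 49 bp of the gene's own start and the core word is present, while 5 of the 9 lower rows have the summit nearer to another gene's start (grey); the COX6B start is also that of CG18809.

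Among the bound members the core word went with the strong peaks. The strong peaks of ox (rank 41) and levy (rank 85), subunit genes outside the name rule, had no copy. TGACAG on either strand, no more than 100 bp from the summit, was present at all 5 strong members, against 38.2% of the 178 promoter summits among the strongest 250. It was present at 2 of the 9 weak members, SdhD and COX7AL2, against 276 of the 2750 weaker promoter summits. Copies numbered 2 at ATPsynE, COX6B and COX5A, and 12.9% of those 178 summits had 2 or more. The centre of the nearest copy lay 10.5 to 34.5 bp from the summit at the strong members, 12.5 bp at SdhD and 43.5 bp at COX7AL2, so SdhD fell within the range of the strong members.

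Presence of the word in a promoter did not by itself separate bound from unbound members. In the window from 250 bp upstream to 50 bp downstream of a TSS it occurred in 12 of the 48 members (25.0%), against 15.1% of all protein-coding genes. These were 6 of the 14 bound members (42.9%) and 6 of the 34 unbound ones (17.6%), where all bound and unbound protein-coding genes had 21.2% and 13.2%. The unbound genes with the word were ATPsynF and ATPsynbeta, and the paralogues UQCR-14L, COX4L, ATPsynGL and ATPsynbetaL. COX7AL2 is not among the 12, since its word lies farther downstream.

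Other promoter words were searched in the same way at the 14 summits. TATCGATA, the DNA replication-related element, lay at ATPsynE, COX7A, SdhC and UQCR-14 (28.6%, against 6.25% of 2928 promoter summits). CAGCTG, an E-box, lay at 5 of them, ATPsynE, COX7A, ATPsynCF6, COX7B and SdhD (35.7%, against 12.9%). At ATPsynE, COX7A and SdhD a copy of CAGCTG shares bases with TGACAG, so the 2 words are not independent there. GGTCACAC, part of core promoter motif 1, and the variants TTACATAA, TTACGTAA, TTATATAA and TTATGTAA of an element described at Drosophila mitochondrial genes were at none, against 3.07% and 4.88% of promoter summits. In the promoter windows, GGTCACAC occurred in 11 of the 48 members (22.9%, against 8.71% of all protein-coding genes), with 4 of the 14 bound members (28.6%) and 7 of the 34 unbound ones (20.6%).

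Among the 34 unbound members, most had no region at all near a start. In the pooled and replicate lists, which reach far below the reproducible peaks, 23 of them had no region with a summit within 500 bp, 14 with names ending in L or L2 and 9 with other names. Of all 48 members this was 47.9%, against 48.6% of all protein-coding genes, and of the 30 members without an L ending it was 9. A pooled region lay at 6 unbound members, the strongest of them at ATPsynbeta. ATPsynbeta, the gene of the catalytic β subunit, had a pooled region of rank 9532 with ranks of 11899, 13056 and 7703 in the replicates. UQCR-11, a small complex III subunit gene, had a pooled region of rank 13446 and ATPsynepsilonL one of rank 12408, both well beyond rank 8998. No unbound member had an optimal summit within 1000 bp of a start, the nearest being that of SdhA.

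COX8 (FBgn0263911, 3L 21538859 to 21539447, minus strand), a small complex IV subunit gene, was unbound in the optimal list although the top list of each replicate held a region there. The regions ranked 8460, 5036 and 4621, with summits 311, 146 and 314 bp upstream of the TSS. Neither the pooled nor the optimal list had a summit within 1000 bp of that TSS. Of 6829 regions in the top list of replicate 1 that overlapped top regions of both other replicates, 31 (0.454%) overlapped no pooled region, and the COX8 region was 1 of them. With the replicates' own lists COX8 counted as bound in each.

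Genes with names ending in L or L2 were bound in 1 of 18 cases, and the other members in 13 of 30. In each replicate's own top list the count was 1 of the 18, while the other members gave 14, 12 and 14 of 30 (mean 13.3 ± 1.15, SD, n = 3). These 5.56% and 43.3% stand on either side of the 23.2% of all protein-coding genes. By nearest protein-coding TSS the other names fell to 7 of 30 (23.3%), against 18.3% of all protein-coding genes, and the L names stayed at 1 of 18. By complex, the other names were bound in 2 of 5, 1 of 6, 6 of 8 and 4 of 11 cases for complexes II, III, IV and V, and the L names in 0 of 3, 0 of 3, 1 of 8 and 0 of 4. By nearest protein-coding TSS the other names gave 1 of 5, 1 of 6, 2 of 8 and 3 of 11, so the high share of complex IV did not hold. In complex I, whose genes have names starting with ND-, 1 of 6 L names and 16 of 40 genes in all were bound.

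Paired with the genes they are named after, the paralogues were unbound where the partner was bound in 9 of 18 pairs. In 8 pairs neither was bound, and in 1 pair, COX7A and COX7AL2, both were. The pairs hold 16 different partner genes, since levy and COX7A each stand in more than 1 pair. Of these 16, 8 were bound, against 23.2% of all protein-coding genes. Of the bound partners, SdhC, COX5B, COX7C, ATPsynCF6 and cype had summits nearer to the start of another gene. By nearest protein-coding TSS only UQCR-14, levy and COX7A of the 16 partners stayed bound, against 18.3% of all protein-coding genes. The pairs with only the partner bound were then those of UQCR-14L, COX6AL, COX6AL2 and COX7AL. The partners of COX6AL and COX6AL2 (levy), COX6CL (cype) and ATPsynepsilonL (sun) carry unrelated names. Some of the paralogues lie close to a bound partner. COX5BL lies 122 bp from COX5B, COX7CL lies 281 bp from COX7C and COX7AL 2625 bp from COX7A. None of these 3 neighbours had an optimal summit at its start. The nearest ones, 1893, 1709 and 2637 bp away, were the peaks ranked 8177, 4912 and 128 that were counted for the partners. Only the peak ranked 128 lay nearest to the partner's start, 11 bp from that of COX7A. The peak ranked 8177 lay 36 bp from IFT52 and 262 bp from COX5B, and that ranked 4912 lay 20 bp from oys and 286 bp from COX7C. Of the 3 neighbours only COX7AL had a region in the pooled list, of rank 19446. It was seen in replicate 1 (rank 10998) and in no other replicate.

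COX7AL2 (FBgn0085201, 2L 2192525 to 2197912, minus strand) was thus the single bound gene of this kind, and its peak differed from that of COX7A in place and strength. The summit, at 2197606, lay 306 bp downstream of the TSS of its longest transcript, in the 5′ UTR, and ranked 7013, against 128 for COX7A. No other protein-coding gene starts within 500 bp of it. A stronger peak of rank 2957 had its summit 509 bp from the same TSS, just beyond the 500 bp limit. The weaker peak spans 2197391 to 2197820 and thus takes in the stronger summit, at 2197403. The strongest regions that overlapped it in the replicates ranked 3212, 2375 and 3967 (mean 3185 ± 796, SD, n = 3), whereas those with the nearest summit had a mean rank of 8196. To which of the peaks the better ranks belong was not tested. With a window of 200 bp no L gene was bound.

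Subunit genes with unrelated names completed the picture of complexes III to V. Of 7 such genes 5 were bound, in the optimal list and in each replicate's top list, against 23.2% of all protein-coding genes. By nearest protein-coding TSS 3 of the 7 were bound, against 18.3%, since the ox summit lay nearer to Dgkepsilon and the cype summit nearer to Ncoa6. ox, which encodes a small subunit of complex III, ranked 41 (31, 46 and 64 in the replicates), and levy, which encodes subunit 6A of complex IV, ranked 85 (85, 69 and 103). The ox summit lay in the 5′ UTR of Dgkepsilon, 21 bp from the start of that gene and 38 bp from that of ox. blw, the gene of the α subunit of ATP synthase, followed at 1235, cype, the gene of subunit 6C of complex IV, at 4269 and Cyt-c1, the gene of cytochrome c1 of complex III, at 6666. None of these 5 had TGACAG within 100 bp of the summit. RFeSP, the gene of the Rieske protein of complex III, and sun, the gene of the ε subunit of ATP synthase, had no region within 500 bp of a start in any list. With ox, complex III too had a peak among the strongest 250.

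Of the adjoining cytochrome c genes, Cyt-c-d was bound and Cyt-c-p was not. The Cyt-c-d peak, in an intron of that gene, ranked 316 (333, 343 and 296), but its summit was 127 bp from the start of CG31808 and 361 bp from that of Cyt-c-d. Cyt-c-p had a region of rank 12577 in the pooled list and of ranks 6241, 13576 and 13198 in the replicates, so replicate 1 alone held it in its top list. The optimal summit nearest to a Cyt-c-p start, of rank 267, lay 942 bp away, beyond the 500 bp limit but inside a 1000 bp window. Of the assembly factor genes Scox, Surf1 and Bcs1 and of Sdhaf3 none was bound.

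Set beside complex I, the named members of complexes II to V had a like count of strong peaks and fewer of middle rank. Complex I had 5 of 40 genes with a peak among the strongest 250 and 12 up to rank 2000, whereas complexes II to V had 5 of 48 at both limits. The median rank of bound genes was 905 in complex I, 4483.5 in complexes II to V, 3219.5 for the 26 bound of 73 mitochondrial ribosomal protein genes and 3083.5 over all bound genes. These differences between gene groups were not tested.

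**Figure D4:**
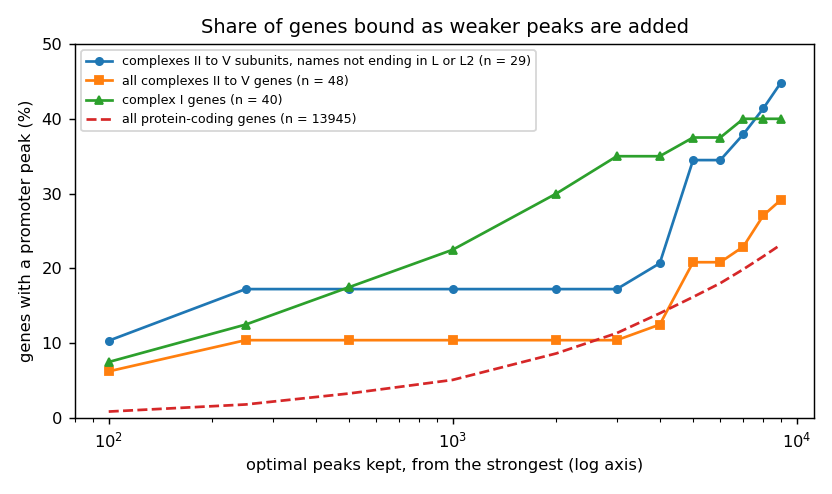
Percentage of genes with a promoter peak when only the strongest optimal peaks are kept, from 100 to 8998 peaks (log axis), for complexes II to V, for their subunit genes without the L names, for complex I and for all protein-coding genes. The genes named for complexes II to V, L names included, rise to 10.4% by 250 peaks, stay flat to 3000 and end at 29.2%, while complex I rises through the middle ranks to 40.0%.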

How the data were processed

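The authors deposited narrowPeak lists in dm6 coordinates: a list of 30000 regions for each of the 3 replicates, a pooled list of 30000 regions, and an optimal list of 8998 peaks cut from these at an irreproducible discovery rate threshold, per the deposited file descriptions. The signal value per region is the authors' own, with no scaling stated, and served for ranks inside 1 list at a time. The −log10 q-value that the authors deposited was used for no result. For the aligner and peak caller, name and version were not given in the sources used here. Read depth is unknown, so no interval was given. Lists in dm3 coordinates were not used.

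Genes and TSSs came from Ensembl release 115, restricted to 6 chromosome arms, and sequence from the RefSeq copy of the Release 6 assembly. A summit is the start plus the offset in the list. A summit within 500 bp of the TSSs of several genes counted for each. A bound gene took its strongest such peak, and in a replicate the strongest region that overlapped this peak by at least 1 bp. The 8998 strongest regions formed each replicate's top list. Words were looked for on either strand up to 100 bp from the summit. Alternatives were other windows, the nearest TSS, the 5′ most TSS, the stronger 50% of peaks and leaving out a replicate. For the counts, leaving out a replicate still started from the optimal list, which was built from all 3 replicates. It could therefore remove members but add none. No test was made.

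The members, lists and words were chosen with earlier results of these data known. Named genes were all bound members, unbound members with a pooled region in the upper 50% of the list, all paralogue pairs, the subunit, carrier and assembly genes with unrelated names, and the genes that share a bound promoter. COX8, SdhA, SdhB, UQCR-C1, UQCR-C2, Sdhaf3 and the unbound genes with TGACAG were named after their values were seen. The code was tested on simulated data. Calculations used Python 3.11.15, numpy 2.4.6, pandas 2.3.3 and matplotlib 3.10.9. One promoter with the inverted pair is not reported here by name.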

Additional observations from a re-analysis of the deposited data

How the results depend on the processing

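No paired analysis was possible because there is a single group. The count of bound members, 14, was also 14 with a 1000 bp window and with the 5′ most TSS only. With intervals that touch the window it was 14 too, and with a 200 bp window 10. It was 12 without replicate 1 or replicate 3, where COX5B and SdhD were lost, and 13 without replicate 2, where only COX5B was lost. It was 8 by nearest protein-coding TSS (7 of the other names) and 7 in the stronger 50% of peaks (all of them other names), with or without the assembly factor. The share of all protein-coding genes moved too. With 1000 bp, the 5′ most TSS and touching intervals it was 27.1%, 20.4% and 24.8%, against 29.2% of members. With 200 bp it was 15.7% against 20.8%, and without a replicate 19.1% to 19.9% against 25.0% to 27.1%. By nearest TSS it was 18.3% against 16.7%, and in the stronger 50% of peaks 15.1% against 14.6%. Complex II had 1 bound gene in place of 2 with a 200 bp window, by nearest TSS, in the stronger 50% of peaks and in the top list of replicate 2, and 1 to 2 when a replicate was left out. Complex III had 0 in the stronger 50% of peaks. Complex IV, with 7, had 4 with a 200 bp window, 3 by nearest TSS and 3 in the stronger 50% of peaks. The L names had 0 with a 200 bp window and in the stronger 50% of peaks. TGACAG stood at 7 bound members also with 50 and 200 bp to each side of the summit; GGTCACAC and the mitochondrial element each gained 1 with 200 bp, and CAGCTG fell from 5 to 3 with 50 bp. Among the strongest 100 peaks were 3 members in place of 5, and 5 among the strongest 500 or 1000, limits chosen after seeing the data. Of 56 other values of mean replicate rank 54 stayed within 1 SD. Those that left out a replicate could not move by more, since they are means of 2 of the same 3 ranks. They therefore say nothing about stability. The 2 values that moved by more than 1 SD, for COX7AL2 (8196) and ATPsynCF6 (4370), came from the region with the nearest summit. The causes were not tested.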

Other observations

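The inverted pair of TGACAG seen at ATPsynE and COX6B, in which CTGTCA is followed within 10 bases by TGACAG, was noticed in the sequences and then counted. It lay within 100 bp of 7 of 2928 promoter summits (0.239%), 5 of them among the 178 with a rank of 250 or better (2.81%). They included ATPsynE (rank 14), COX6B (16), the promoter of RpS14a and Dhdds (102), the complex I gene ND-13A (113), Sema2a (1412) and cpx (2634). The copies were 3 bases apart at 5 of these promoters and 4 apart at ATPsynE and cpx. The count was made after the pairs had been seen and is a description.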
